A study of Mus musculus with 9 samples.

Results

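The iron genes described here are 9 genes of iron uptake, storage and hepcidin signaling, out of 52176 gene names in the expression tables of 9 mouse liver tumors. They are Hamp and Hamp2 (hepcidin and its neighboring copy), Bmp6, Tfr2, Tfrc, Slc39a14, Slc40a1, Fth1 and Ftl1, and they were chosen by name. In each tumor the value of a gene was the sum of FPKM (fragments per kilobase of transcript, scaled to the mapped fragments of the library) over the table entries that name it. Of the 9 genes, 7 passed the filter on low values and were tested, while Hamp2 and Bmp6 were not.

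Pieces of Hepa1-6 tumor, derived from a mouse hepatoma line, were grown in the liver of C57BL/6 mice, which the methods give as male and 6 to 8 weeks old at purchase. PBS or an antibody against PD-1 (clone RMP1-14) was given into the peritoneum every 4 days for 5 times, from day 10 to day 26, and the tumors were taken on day 27 with surrounding tissue cut away. The 3 groups of 3 tumors were PBS-treated tumors, anti-PD-1 antibody-nonresponsive tumors, which were the largest after antibody, and anti-PD-1 antibody-responsive tumors, which were the smallest. Tumors of intermediate size were excluded, so both antibody groups were extremes of 1 treatment, all tumors came from 1 cell line, and each tumor was 1 mouse. All values below are bulk RNA sequencing of whole tumor, in which fewer cells of a type and less RNA per cell cannot be told apart.

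Hepcidin is a peptide hormone made mainly by hepatocytes, and it limits the entry of iron into plasma by driving degradation of ferroportin, the iron exporter encoded by Slc40a1. Its transcription rises with BMP signaling, to which BMP6 and transferrin receptor 2 (Tfr2) feed in, and with interleukin 6 through STAT3. Inside cells, iron regulatory proteins bind stem-loops in messenger RNA, the iron-responsive elements, when iron is scarce, and thereby block translation of ferritin (Fth1, Ftl1) and ferroportin and stabilize the messenger RNA of transferrin receptor 1 (Tfrc).

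The deposited tables give no read counts. The lowest FPKM values allowed only relative depths, which lay between 0.934 and 1.07 times that of PBS tumor 1. Only entries with similar values in both tumors entered this estimate, so a large difference in depth could not have shown. The tables list 12533 to 13328 entries with a gene name at an FPKM of 1 or more, and the entries without a name, left out here, took 19.2% to 81.5% of all FPKM. PBS tumor 1 stood apart from the other tumors in liver genes: the summed FPKM of 15 hepatocyte genes was 504 in it and 4203 to 22440.5 in the other 8.

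Hamp, the hepcidin gene, had the widest span of the 7 tested genes, 83.3-fold between the lowest and the highest tumor. Its FPKM was 26.1, 181 and 529 in the PBS tumors, 1323, 224 and 205 in the nonresponsive tumors and 2172, 544 and 709.5 in the responsive tumors. All 3 responsive tumors lay above all 3 PBS tumors, whereas nonresponsive tumor 1 lay above 2 of the responsive tumors. The group means of log2(FPKM + 1) were 7.10 ± 2.17 (SD, n = 3), 8.62 ± 1.51 and 9.88 ± 1.06 in the same order. By limma, a moderated linear model over all genes with Benjamini-Hochberg adjustment, the responsive minus PBS difference on this scale was 2.78 (SE 1.18, adjusted p = 0.294), and the responsive minus nonresponsive difference was 1.26 (SE 0.905, adjusted p = 0.973). The nonresponsive minus PBS difference was 1.52 (SE 1.28, adjusted p = 0.718). No difference passed, and all 3 depended on single tumors in size. Between responsive and nonresponsive tumors it was 0.66 without responsive tumor 1, 0.79 without nonresponsive tumor 3 and 2.13 without nonresponsive tumor 1. Between responsive and PBS tumors it was 1.61 without PBS tumor 1 and 3.75 without PBS tumor 3, and between nonresponsive and PBS tumors 0.35 without PBS tumor 1, 0.65 without nonresponsive tumor 1 and 2.49 without PBS tumor 3. Of these fits, those giving 2.13 and 3.75 had an unadjusted p under 0.05, and none had an adjusted one.

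Hamp and Hamp2 lie next to each other on chromosome 7, and their first-listed GENCODE transcripts shared 388 of 420 aligned positions (92.4%). Of all runs of 50 bases in the Hamp transcript, 16.6% occur unchanged in that of Hamp2, so some reads of one can be assigned to the other. In PBS tumor 3, nonresponsive tumor 1 and responsive tumor 1, a single table entry names both genes. These are the tumors with the highest Hamp value of each group. In the other 6 tumors Hamp2 has an entry of its own that is listed at 0, so no level of Hamp2 and no ratio of Hamp to Hamp2 could be given, and how much of the shared entries belongs to each gene was not tested. Limma fits of 2 tumors a group were run without those 3 tumors, a choice made after seeing the data. The responsive minus nonresponsive difference of Hamp was then 1.53 (adjusted p = 0.551, limma). The responsive minus PBS difference was 3.15 (adjusted p = 0.772, limma), and both had an unadjusted p under 0.05. Leaving out the highest tumor of each group itself narrows the spread within groups. No support for a difference is therefore drawn from these p-values.

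The promoters of both genes are shown because they differ in a motif through which BMP signaling reaches hepcidin. The stretches run from 130 to 61 bases before the start of transcription in RefSeq on GRCm38.p6, both on the minus strand, chr7:30944090-30944159 for Hamp and chr7:30924242-30924311 for Hamp2. Capitals mark the core of the BMP-responsive element, GGCGCC, and the STAT site, TTCTTGGAA.
Hamp: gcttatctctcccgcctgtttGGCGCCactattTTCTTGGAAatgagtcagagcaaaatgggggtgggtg
Hamp2: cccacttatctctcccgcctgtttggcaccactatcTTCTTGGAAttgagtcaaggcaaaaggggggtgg
Within the 250 bases before the start, the BMP core was found in Hamp at -109 and not in Hamp2, and the STAT site in both, at -97 and -94. On either strand, the BMP core occurs in 9.59% and the STAT site in 0.365% of 32851 mouse promoters of the same length, and a match of letters says nothing of binding in these tumors.

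Bmp6, whose product is made mostly by liver endothelial cells and is the ligand that couples liver iron to hepcidin, was listed at 0 in all 9 tumors. An exact 0 in these tables can be a missing estimate, since between 3258 and 3807 named entries that were assembled anew in a tumor were listed at 0. The Bmp6 entries were of this kind in all 9 tumors. By contrast, 0 of 71 ribosomal protein genes was listed at 0 in any tumor.

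Tfr2, a hepatocyte sensor of transferrin-bound iron that acts upstream of hepcidin, had an FPKM of 2.101, 12.5 and 17.1 in the PBS tumors. It was 38.1, 15.3 and 13.0 in the nonresponsive tumors and 63.9, 33.5 and 42.5 in the responsive tumors. The responsive tumors all lay above the PBS tumors, and nonresponsive tumor 1 lay between 2 responsive tumors. The responsive minus PBS difference on the log2(FPKM + 1) scale was 2.33 (SE 0.709, adjusted p = 0.281, limma), and the responsive minus nonresponsive difference was 1.15 (SE 0.465, adjusted p = 0.885, limma). Tfr2 was the only member with an unadjusted p under 0.05 in any of the 3 comparisons, and no member passed after adjustment over all genes. It had one for both differences, but not for the first without responsive tumor 1, where the difference was 2.09. For the second it had none when responsive tumor 1, responsive tumor 3, nonresponsive tumor 2 or nonresponsive tumor 3 was left out, with differences of 0.87 to 1.19, nor with upper-quartile scaling, with equal sums over named entries (0.96) or in 1 fit of all 9 tumors. The nonresponsive minus PBS difference was 1.18 (SE 0.774, adjusted p = 0.718, limma), and 0.41 without PBS tumor 1. Without PBS tumor 1 the responsive minus PBS difference was 1.56.

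**Figure D1:**
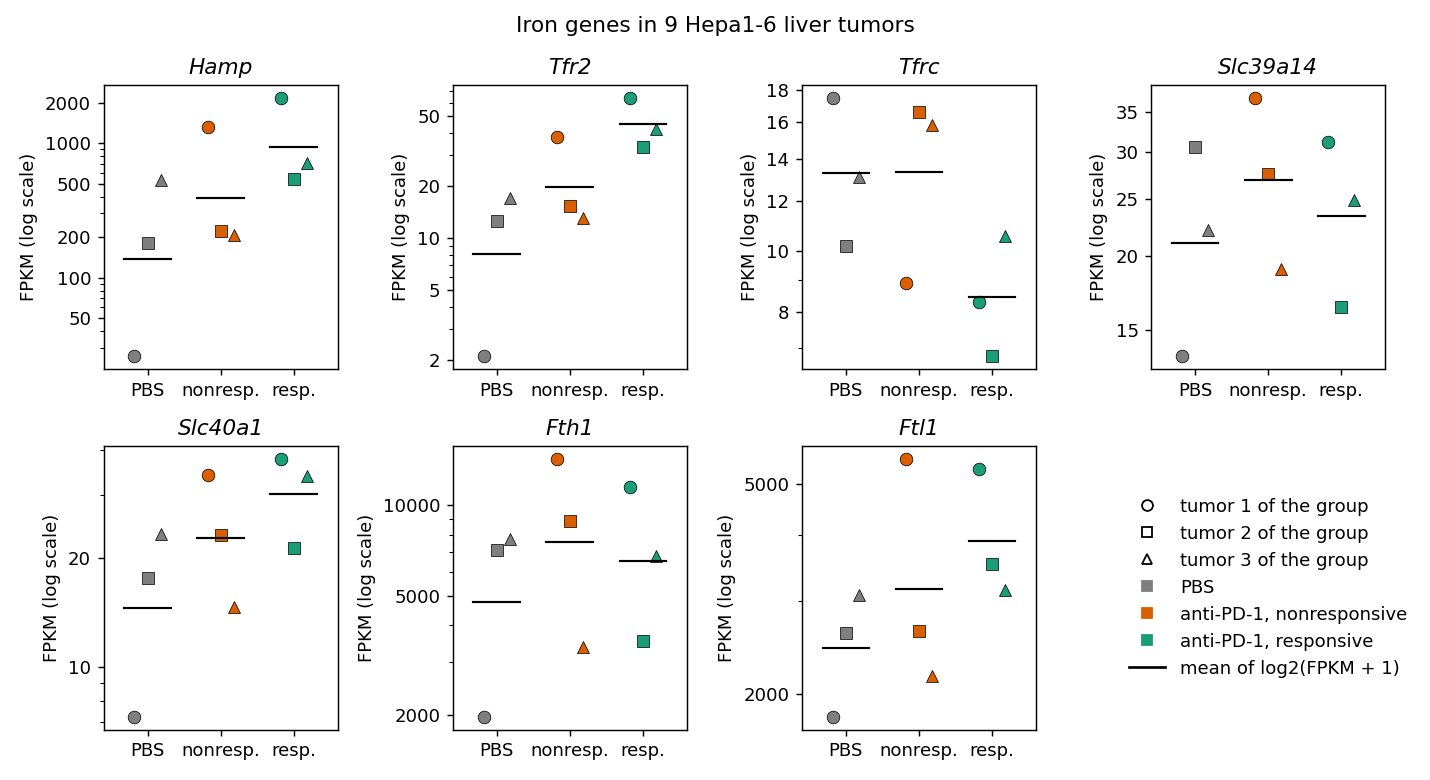
FPKM of the 7 tested iron genes in each of the 9 tumors, on log axes that differ between panels, with symbols for the tumor number and a line at the mean of log2(FPKM + 1) for each group of 3. Hamp and Tfr2 of the responsive tumors lie above all PBS tumors, from 544 and 33.5 FPKM upward, whereas the Tfrc values of the responsive tumors, 6.80 to 10.6 FPKM, reach into the range of both other groups.

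The messenger RNAs of 4 members carry the iron-responsive element, and the sites are shown since they decide in which direction iron sets each protein or transcript. The motif searched was a C, 5 bases, the loop CAGTGN and 5 bases that pair with the first 5 (G-U pairs allowed), in the first-listed GENCODE transcript of each gene on GRCm38, and the capitals mark the loop. Fth1 (chr19:9982733-9982759, plus strand), Ftl1 (chr7:45459780-45459806, minus strand) and Slc40a1 (chr1:45925466-45925492, minus strand) had 1 site each in the 5′ UTR. Tfrc had 4 in the 3′ UTR on the plus strand, at chr16:32631220-32631246, chr16:32631599-32631625, chr16:32631664-32631690 and chr16:32631711-32631737.
Fth1: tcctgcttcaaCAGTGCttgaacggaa
Ftl1: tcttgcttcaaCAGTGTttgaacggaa
Slc40a1: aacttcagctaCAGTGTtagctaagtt
Tfrc site 1: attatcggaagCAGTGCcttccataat
Tfrc site 2: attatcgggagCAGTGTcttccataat
Tfrc site 3: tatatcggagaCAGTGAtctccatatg
Tfrc site 4: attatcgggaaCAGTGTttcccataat
The same search found a site in the 5′ UTR of 21 (0.0986%) and in the 3′ UTR of 93 (0.437%) of 21291 protein-coding genes. Transcript levels do not show translation, so the 5′ UTR sites of ferritin and ferroportin mark a layer of control outside these measurements.

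Tfrc, which takes up transferrin-bound iron and is high in dividing cells, had its lowest mean in the responsive tumors. Its FPKM was 17.5, 10.2 and 13.1 in the PBS tumors, 8.88, 16.6 and 15.9 in the nonresponsive tumors and 8.28, 6.80 and 10.6 in the responsive tumors. The 2 lowest of all 9 values were responsive, but nonresponsive tumor 1 and PBS tumor 2 lay below responsive tumor 3. The responsive minus nonresponsive difference was -0.60 (SE 0.303, adjusted p = 0.900, limma on log2(FPKM + 1)) and the responsive minus PBS difference was -0.60 (SE 0.259, adjusted p = 0.296). PBS and nonresponsive tumors had nearly equal means on this scale, with a difference of 0.0045 (SE 0.319). An unadjusted p under 0.05 was reached without nonresponsive tumor 1, where the first difference was -0.87 (adjusted p = 0.360, limma), and without PBS tumor 2, where the second was -0.78 (adjusted p = 0.294).

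Slc39a14 encodes ZIP14, which imports iron not bound to transferrin and is induced in liver by inflammation. Its FPKM was 13.5, 30.6 and 22.2 in the PBS tumors, 37.0, 27.6 and 19.03 in the nonresponsive tumors and 31.2, 16.4 and 24.8 in the responsive tumors. The groups overlapped throughout, and the 3 differences between groups, from -0.20 to 0.34 on the log2(FPKM + 1) scale, were each smaller than their SE of 0.344 to 0.379.

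Slc40a1, the ferroportin gene, had an FPKM of 7.25, 17.6 and 23.4 in the PBS tumors, 34.2, 23.3 and 14.7 in the nonresponsive tumors and 37.9, 21.4 and 33.9 in the responsive tumors. PBS tumor 1 and nonresponsive tumor 3 were lowest, and responsive tumor 1 and nonresponsive tumor 1 highest. The responsive minus PBS difference was 1.01 (SE 0.462, adjusted p = 0.307, limma on log2(FPKM + 1)). It was 0.55 without PBS tumor 1 and 1.33 without PBS tumor 3 (adjusted p = 0.411, limma), the latter with an unadjusted p under 0.05. The other differences were 0.39 (SE 0.375) for responsive minus nonresponsive, with 0.095 to 0.68 when 1 tumor was left out, and 0.61 (SE 0.502) for nonresponsive minus PBS, with 0.16 to 0.94. This gene had the widest Cufflinks intervals of the set, up to 85.1% of the value in PBS tumor 1, where the interval ran from 1.08 to 13.4 FPKM, and in responsive tumor 3 its entry also names Gm5526. With both genes joined in every tumor, the responsive minus nonresponsive difference was 0.22 and the responsive minus PBS difference 0.75.

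The ferritin genes had the highest FPKM, a level per length, of the set in each tumor; both have processed pseudogenes, to which part of their reads may have been assigned. Fth1, the heavy chain that oxidizes iron for storage, had an FPKM of 1973, 7076 and 7713 in the PBS tumors, 14332, 8846 and 3377 in the nonresponsive tumors and 11504, 3541 and 6792 in the responsive tumors. Ftl1, the light chain, had an FPKM of 1810.3, 2614 and 3079 in the PBS tumors, 5585, 2626 and 2164 in the nonresponsive tumors and 5332, 3527 and 3142 in the responsive tumors. Both were lowest in PBS tumor 1 and highest in nonresponsive tumor 1. The Ftl1 values of the responsive tumors lay just above those of the PBS tumors, 3142 against 3079 FPKM at the nearest, with a difference of 0.67 (SE 0.406, adjusted p = 0.378, limma on log2(FPKM + 1)). For Fth1 the responsive minus PBS difference was 0.45 (SE 0.762), the nonresponsive minus PBS difference 0.66 (SE 0.804) and the responsive minus nonresponsive difference -0.21 (SE 0.755), so that no difference was larger than its error.

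Within a tumor, the ratio of Fth1 to Ftl1, taken on FPKM + 1, hardly depends on how FPKM were scaled. It was 1.09, 2.71 and 2.50 in the PBS tumors, 2.57, 3.37 and 1.56 in the nonresponsive tumors and 2.16, 1.00 and 2.16 in the responsive tumors. PBS tumor 1 and responsive tumor 2 had about as much heavy as light chain transcript per length, and the other 7 tumors had more heavy chain. The responsive minus nonresponsive difference in the log2 ratio was -0.51 (SE 0.491), with p = 0.4 in an exact two-sided permutation test, in which 3 against 3 tumors cannot give less than 0.1. The ratio of Tfrc to Fth1, which sets uptake beside storage, was also taken on FPKM + 1, where the added 1 counts for the low Tfrc values. It was highest in PBS tumor 1 (0.00937) and lowest in nonresponsive tumor 1 (0.000689). Its responsive minus PBS difference was -1.05 (SE 0.931, exact permutation p = 0.5), and over the 6 tests of both ratios the adjusted p-values were 0.84 to 0.9.

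In the responsive against nonresponsive comparison, 1 of 7 members had an unadjusted p under 0.05, where 5.49% of 13845 genes did, 0 of 7 had groups that did not overlap, where 10.5% of genes did, and 0 of 7 passed an adjusted p of 0.05, where 0.116% of genes did (limma). In the responsive against PBS comparison these counts were 1, 3 and 0 of 7, beside 17.2%, 28.0% and 0.231% of 13852 genes. The 3 members without overlap there were Hamp, Tfr2 and Ftl1, all higher in responsive tumors. In the nonresponsive against PBS comparison they were 0, 0 and 0 of 7, beside 3.22%, 8.20% and 0.0797% of 13806 genes. The comparisons share tumors in pairs and are not independent of one another.

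**Figure D2:**
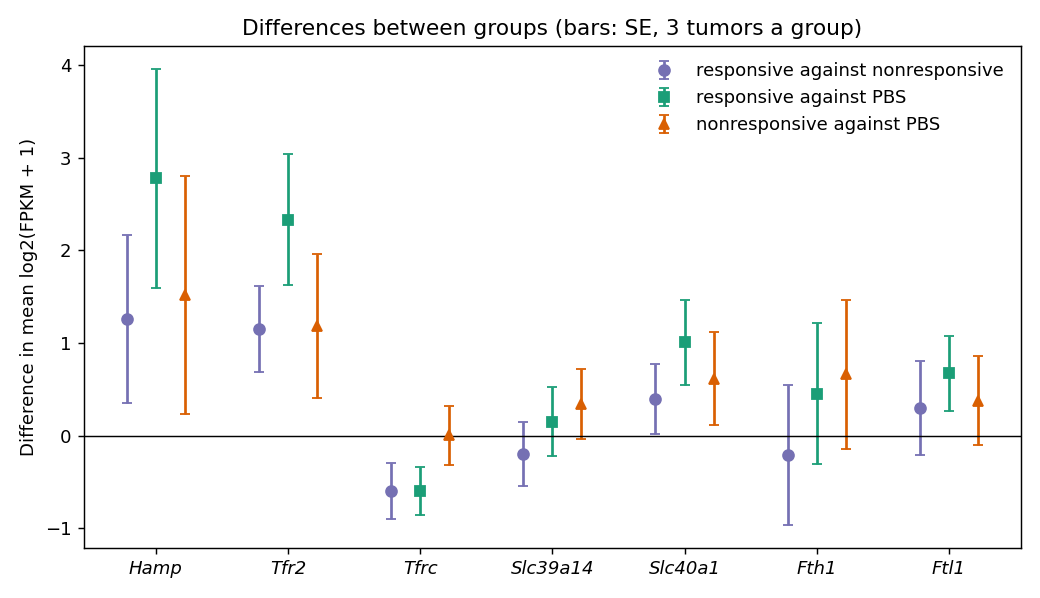
Differences in mean log2(FPKM + 1) between groups for the 7 tested iron genes, with SE bars from limma and 3 tumors a group. Hamp and Tfr2 have the largest differences, 2.78 and 2.33 for responsive minus PBS, Tfrc is the one member below 0 against both other groups at -0.60, and no difference passed an adjusted p of 0.05.

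Hepatocyte transcripts varied with Hamp, Tfr2 and Slc40a1 over the tumors. The summed FPKM of 15 hepatocyte genes, among them Alb (albumin), Ttr and Apoa1, was 504 to 6337 in the PBS tumors, 4203 to 15029 in the nonresponsive tumors and 13338 to 22440.5 in the responsive tumors. Of these 15 genes, 12 were higher in responsive than in PBS tumors at an unadjusted p under 0.05 (limma), beside 17.2% of all genes called. Against nonresponsive tumors 6 were so, beside 5.49%, and 0 passed between nonresponsive and PBS tumors, beside 3.22%. Apoa2, Serpina1c, Fga and Cyp3a11 each share an entry with other genes in at least 1 tumor, which can set their values and the sum. The 3 tumors with the highest hepatocyte sum, responsive tumors 1 and 3 and nonresponsive tumor 1, were also the 3 highest for Hamp, Tfr2 and Slc40a1. They were the 3 highest for the Kupffer, acute phase and erythroid sums as well. Per 1000 FPKM of the hepatocyte sum, Tfr2 spanned only 2.37 to 4.17 FPKM over the 9 tumors, beside a 30.4-fold span of its own level, and Hamp spanned 34.7 to 96.8. Slc40a1 spanned 1.60 to 14.4 on this measure, more than the 5.23-fold span of its own level, and Tfrc 0.369 to 34.7. Both upper ends were PBS tumor 1, where the hepatocyte sum was lowest. The next highest values were 4.03 for Slc40a1 in PBS tumor 2 and 3.77 for Tfrc in nonresponsive tumor 3. When the mean log2 level of the hepatocyte genes was a covariate in a limma fit of all 9 tumors, an alternative added after seeing the data, the responsive minus PBS difference was 0.14 for Tfr2, -0.83 for Hamp, -0.41 for Slc40a1 and -0.056 for Tfrc, all with an adjusted p of 0.999. The responsive minus nonresponsive difference was then 0.12 for Tfr2 (adjusted p = 0.908) and -0.43 for Hamp (adjusted p = 0.864). This covariate was 3.90 to 7.26 in the PBS, 6.67 to 8.37 in the nonresponsive and 8.30 to 9.31 in the responsive tumors, lowest in PBS tumor 1. PBS and responsive tumors shared no range of it, so there the fit extrapolates and cannot tell hepatocyte level from group. Whether the hepatocyte transcripts came from liver around the tumor or from tumor cells was not tested.

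In the same limma fit the differences of Fth1 were -1.70 for responsive minus PBS (adjusted p = 0.999) and -1.22 for responsive minus nonresponsive tumors (adjusted p = 0.530), and that of Slc39a14 was -0.66 for responsive minus nonresponsive tumors (adjusted p = 0.545), all 3 with an unadjusted p under 0.05. Both genes are also used by myeloid cells. The neutrophil sum (6 genes, among them S100a8 and S100a9) was highest in nonresponsive tumor 1 at 5080.0 FPKM, as were Fth1 and Slc39a14, and lowest in PBS tumor 1 at 176, as were both. The acute phase sum was likewise highest in nonresponsive tumor 1 (17234 FPKM) and lowest in PBS tumor 1 (460 FPKM). PBS tumor 1 was also lowest for the hepatocyte, Kupffer and macrophage sums. Of the 3 highest tumors, Fth1 shared 1 with the neutrophil sum and 3 with the macrophage sum, and Slc39a14 shared 2 with each. Which cells carried the transcripts of Fth1 and Slc39a14 was not tested.

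**Figure D3:**
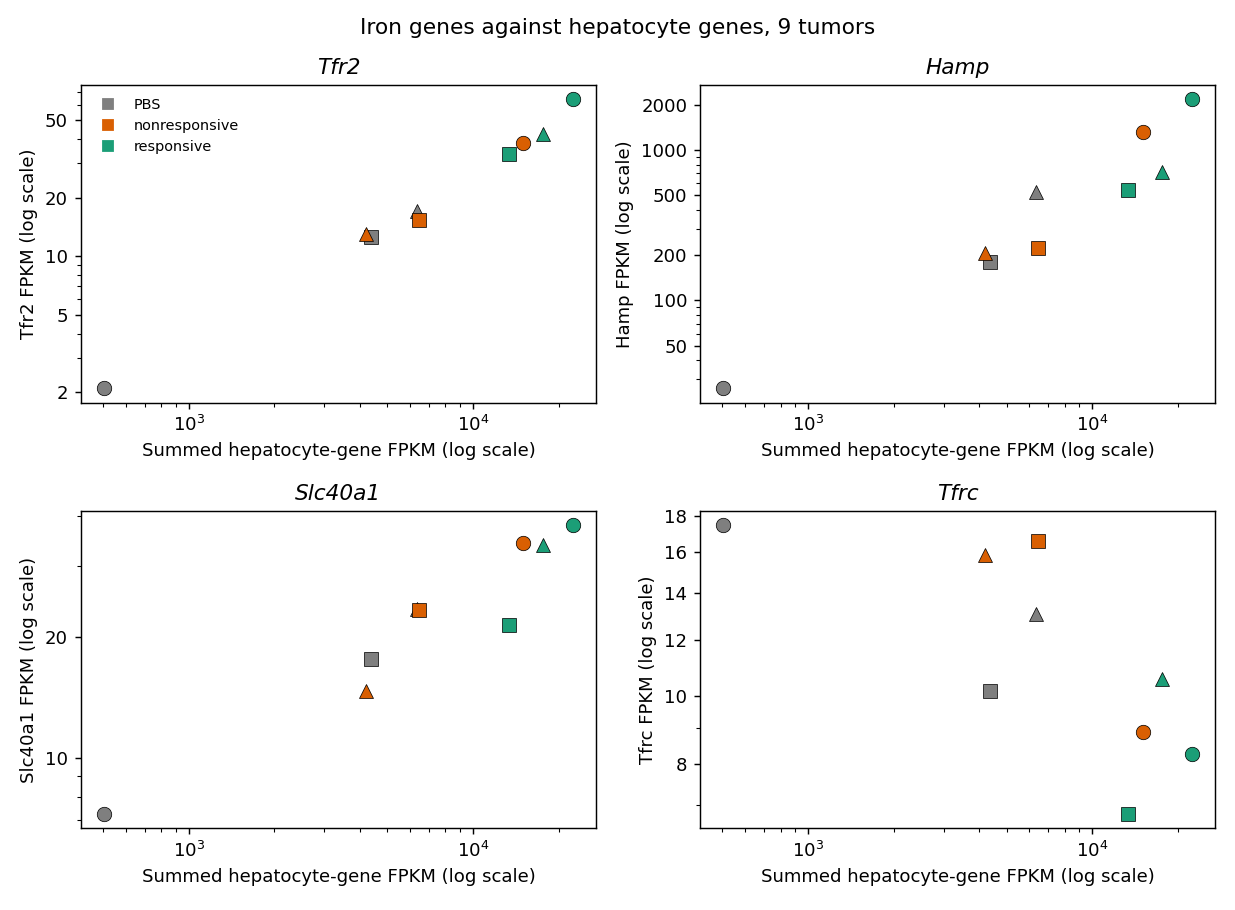
FPKM of Tfr2, Hamp, Slc40a1 and Tfrc against the summed FPKM of 15 hepatocyte genes in the 9 tumors, both axes logarithmic, with colors for groups and circle, square and triangle for tumors 1, 2 and 3 of a group. Tfr2, Hamp and Slc40a1 are lowest in PBS tumor 1, where the hepatocyte sum is 504 FPKM, and highest in responsive tumor 1, where it is 22440.5, and Tfrc is highest in PBS tumor 1 at 17.5 FPKM.

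Other cell types that carry iron genes varied as well. The Kupffer cell sum (5 genes), from the liver macrophages that recycle iron, was 4.52 to 118 FPKM in the PBS, 85.3 to 216 in the nonresponsive and 119 to 303 in the responsive tumors. In the same order, the general macrophage sum (8 genes) was 705 to 1311, 1324 to 1931 and 1182 to 1882 FPKM. The sum of 7 sinusoidal endothelial genes was 152 to 332, 154 to 599 and 120.03 to 335 FPKM. Liver endothelial cells make BMP6, but why Bmp6 was listed at 0 was not tested. T cell genes (6) summed to 55.0 to 157, 92.7 to 119 and 126 to 173 FPKM. Proliferation genes (7), which bear on Tfrc, summed to 268 to 610.0, 66.1 to 755 and 73.9 to 476 FPKM. They were lowest in nonresponsive tumor 1 and responsive tumor 1, where Tfrc was 8.88 and 8.28 FPKM, but responsive tumor 2, with the lowest Tfrc of all, had a proliferation sum of 476. Of the genes tested, 3 of 5 erythroid and 3 of 7 sinusoidal endothelial genes were higher in responsive than in PBS tumors at an unadjusted p under 0.05 (limma), beside 17.2% of all genes called. So were 0 of 5 Kupffer, 0 of 8 macrophage, 0 of 6 neutrophil and 0 of 6 T cell genes. The same held for 0 of 7 proliferation, 0 of 4 hepatoma and 0 of 6 acute phase genes. Lower at that threshold were 1 of 7 proliferation genes and no gene of the other lists. The median responsive minus PBS difference of the proliferation genes was -1.08. Hba-a1 shares an entry with Hba-a2, and Hbb-bs with Hbb-bt, in at least 1 tumor, so the erythroid genes are not separate counts. Genes of the other lists also share an entry with other genes in at least 1 tumor, which can set their values or sums. Among them are S100a8, Ly6g and Csf3r (neutrophil), Saa1, Saa3, Orm1 and Orm2 (acute phase), Ccnb1 and Birc5 (proliferation) and Fcgr2b (sinusoidal endothelial). Erythroid genes, 8 of 9 in the tables, summed to 76.1 to 290.1, 133 to 464 and 255 to 503 FPKM, with Slc4a1 and Klf1 below 1 in every tumor. Acute phase genes (6), which share the interleukin 6 route with Hamp, summed to 460 to 5979, 3496 to 17234 and 4963 to 13762 FPKM, and the fetal liver and hepatoma genes (5), with Dlk1 below 1 throughout, to 36.5 to 46.0, 29.1 to 107 and 10.7 to 68.4 FPKM. Their part in the differences of the iron genes was not tested.

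Of 59 further genes of iron and heme, 57 were tested between responsive and nonresponsive tumors and 56 in each comparison with PBS. The counts with an unadjusted p under 0.05 were 3 higher and 1 lower in responsive than in nonresponsive tumors (7.02%, beside 5.49% of all genes), 7 higher and 1 lower in responsive than in PBS tumors (14.3%, beside 17.2%) and 0 higher and 2 lower in nonresponsive than in PBS tumors (3.57%, beside 3.22%). None passed after adjustment over all genes by limma. These counts include Id1, in the first and the third comparison, whose value is set by how its table entries were drawn, and with genes that share an entry joined they were 3, 10 and 1 in all. The median differences of the list were -0.00104, 0.044 and 0.19, beside medians of -0.066, -0.11 and -0.057 over all genes tested. By role, the hepcidin control genes had 3 of 21 with p under 0.05 in each comparison of the responsive tumors, transport genes 0 of 12 and 1 of 11, cellular regulation genes 0 of 6 in both, heme and hemoglobin clearance genes 0 of 10 and 2 of 10, and heme synthesis genes 1 of 8 and 2 of 8.

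Of the 21 hepcidin control genes tested against PBS, 7 were higher in responsive tumors, with a median difference of -0.12, beside -0.11 over all genes. The groups did not overlap for 8 of them (38.1%, beside 28.0% of all genes), and of these Bmpr1a, Smad4 and Neo1 were lower in responsive tumors. Among the genes that control hepcidin, Tmprss6, a liver protease that restrains BMP signaling to Hamp, went the way of Tfr2. Its FPKM was 1.82, 13.0 and 17.7 in the PBS tumors, 40.7, 14.9 and 11.7 in the nonresponsive tumors and 72.2, 36.0 and 48.1 in the responsive tumors. The responsive minus PBS difference was 2.50 (SE 0.762, adjusted p = 0.281, limma) without overlap, and the responsive minus nonresponsive difference was 1.33 (SE 0.518, adjusted p = 0.885). With the hepatocyte covariate these were 0.098 and 0.20. Hjv, hemojuvelin, a BMP co-receptor of hepatocytes, ranged from 1.26 to 5.38 FPKM in the PBS, from 3.86 to 12.4 in the nonresponsive and from 6.88 to 16.7 in the responsive tumors, with a responsive minus PBS difference of 1.72 (SE 0.504, adjusted p = 0.281, limma) and no overlap. Smad6, an inhibitor induced by BMP signaling, differed by 1.01 between responsive and PBS tumors (SE 0.345, adjusted p = 0.282, limma), from 2.13 to 5.75 FPKM against 7.73 to 11.6. These 3 genes had an unadjusted p under 0.05 against PBS. With the hepatocyte covariate the difference of Hjv was 0.41 and that of Smad6 was -0.25.

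Il6ra, the receptor through which interleukin 6 acts on hepatocytes, was highest in the nonresponsive tumors. Its FPKM was 8.20, 12.3 and 10.6 in the PBS tumors, 16.7, 14.9 and 12.8 in the nonresponsive tumors and 10.1, 8.35 and 10.4 in the responsive tumors. The nonresponsive tumors all lay above the other 6, and the responsive minus PBS difference was -0.088. The responsive minus nonresponsive difference was -0.57 (SE 0.193, adjusted p = 0.885, limma), and with the hepatocyte covariate it was -0.77 (adjusted p = 0.478), both with an unadjusted p under 0.05.

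Id1, the textbook target of BMP signaling, shows how the table entries can set a value. It read 113, 23.7 and 16.6 FPKM in the nonresponsive tumors, against 115 to 162 in PBS and 109 to 137 in responsive tumors, with a nonresponsive minus PBS difference of -1.88 (SE 0.718, adjusted p = 0.718, limma) and a responsive minus nonresponsive difference of 1.77 (SE 0.707, adjusted p = 0.885). However, nonresponsive tumors 2 and 3 were the only tumors where Id1 had an entry of its own, and in the other 7 its entry also names H13. Summed over the joined locus, these tumors read 198 and 177 FPKM, and the differences were 0.22 and -0.34, without an unadjusted p under 0.05. Pcbp2, an iron chaperone and the most abundant gene of the cellular regulation role, likewise shared entries with Prr13 in 5 of 9 tumors, and no direction is drawn from either gene.

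Heme synthesis genes did not move together. Cpox, coproporphyrinogen oxidase, was 10.7, 12.2 and 13.3 FPKM in PBS, 17.4, 13.1 and 17.3 in the nonresponsive and 27.3, 21.7 and 25.01 in the responsive tumors. The responsive tumors lay above the other 6, with differences of 0.97 from PBS (SE 0.165, adjusted p = 0.239, limma) and 0.60 from nonresponsive tumors (SE 0.201, adjusted p = 0.885), and with the hepatocyte covariate these were 0.75 and 0.50. Urod, the enzyme just before it, lay at 39.8 to 47.1 FPKM in the PBS tumors, above the 22.2 to 39.3 of the nonresponsive and the 29.0 to 34.4 of the responsive tumors, with differences from PBS of -0.67 (adjusted p = 0.718) and -0.50 (adjusted p = 0.281). Alas1, the first enzyme of the pathway and the most abundant on average over all 9 tumors, though below Alad in the mean of the PBS and of the responsive tumors, was 73.3 to 139, 45.6 to 199 and 66.2 to 139 FPKM, overlapping throughout.

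**Figure D4:**
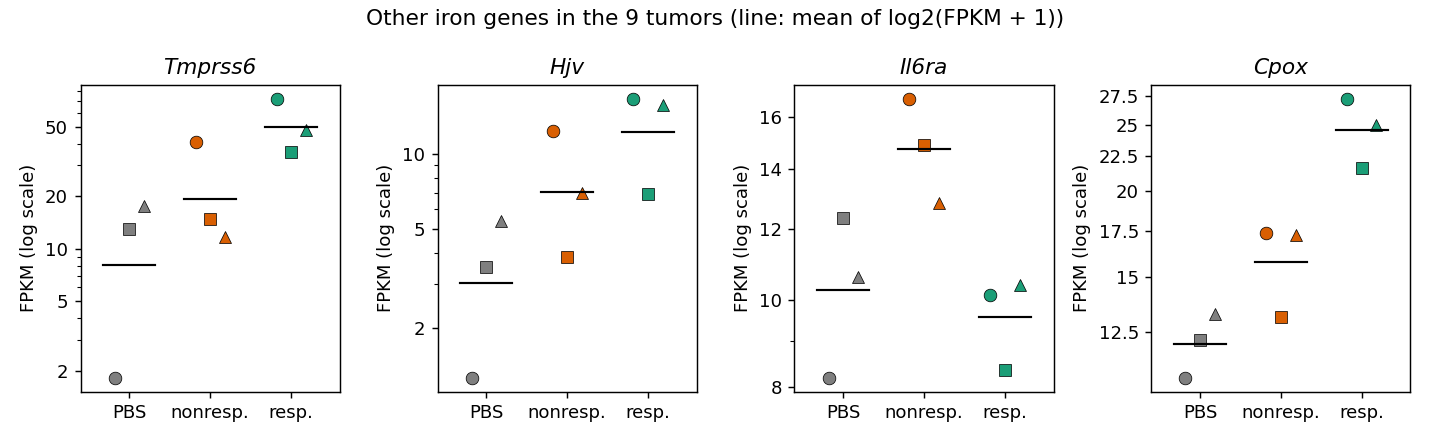
FPKM of 4 further iron and heme genes in the 9 tumors on log axes, with circle, square and triangle for tumors 1, 2 and 3 of a group and a line at the mean of log2(FPKM + 1). Cpox of the responsive tumors, 21.7 to 27.3 FPKM, lies above the other 6 tumors, and Il6ra of the nonresponsive tumors, 12.8 to 16.7 FPKM, does too.

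The plasma carriers of iron and hemoglobin are mostly hepatocyte products. Trf, transferrin, was the most abundant transport gene, with 258 to 1586 FPKM in the PBS, 1057 to 3403 in the nonresponsive and 1816 to 4756 in the responsive tumors, and a responsive minus PBS difference of 2.07 (SE 0.790, adjusted p = 0.287, limma) without overlap. Hp, haptoglobin, which binds free hemoglobin, reached 145 to 2127, 1306 to 4152 and 1934 to 5459 FPKM and overlapped between all groups. Blvrb, biliverdin reductase B, was 53.1 to 77.0 FPKM in the PBS, 67.8 to 101 in the nonresponsive and 108 to 119.9 in the responsive tumors, with a responsive minus PBS difference of 0.73 (SE 0.203, adjusted p = 0.281, limma), or 0.25 with the hepatocyte covariate.

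Ranked by Pearson correlation of log2(FPKM + 1) over the 9 tumors, among 10641 genes with a mean FPKM of at least 5, the genes closest to Hamp were Pla2g12b (r = 0.988), Hebp1 (0.988), a heme-binding protein, and Mup-ps19 (0.985), a pseudogene of the major urinary proteins, whose near-identical copies make its level uncertain. The closest to Slc40a1 were Trf (0.991), Aldh1a7 (0.990) and Mrap (0.987). The closest to Fth1 were a joint entry of the formyl peptide receptors Fpr2 and Fpr3 (0.987), Tlr2 (0.987) and Tnfrsf1b (0.983), receptors of myeloid cells. The closest to Tfrc were Casp8 (0.981), Acly (0.959), which makes acetyl-CoA for lipid synthesis, and Snx7 (0.957). These describe likeness over tumors that share a library each, chosen as the top of many genes, and carry no test.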

How the data were processed

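RNA of 9 tumors, 3 a group, was sequenced as bulk libraries. The authors deposited 1 Cufflinks gene table per tumor with FPKM and their intervals, and the submitters' processing notes name Bowtie2 2.2.4, TopHat2 2.1.1 and the build mm8. Against GRCm38, 3.28% of 35014 genes ended within 1 kb of the position in the tables, so the build of the tables is unsettled and their coordinates were not used. A table of the authors' own group comparisons (fold changes and p-values) was not used.

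FPKM of entries naming a gene were summed per tumor. An entry naming several genes counted for each of them, and 13 genes with a failed estimate were left out. A gene was tested where 3 or more of the 6 tumors reached an FPKM of 1, using limma 3.58.1 (R 4.3.3) on values transformed to log2(FPKM + 1), with trended moderation of the variances, without a replicate block, and with Benjamini-Hochberg adjustment over all genes tested. Ratios were tested by exact two-sided permutation with scipy 1.17.1 in Python 3.11.15 (pandas 2.3.3, numpy 2.4.6, matplotlib 3.10.9), and sequences were aligned with Biopython 1.88. The fit was tested on simulated data. Depth in reads is unknown, so no counting interval is given, and 3 tumors a group limit the precision.

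The members, the gene lists and the rule for named genes were chosen with earlier results of these data known. Of the other iron genes, those with an unadjusted p under 0.05 in a comparison were named, at most 6 by p, plus the most abundant of each role, and for 4 members the 3 genes most alike over the tumors. Tumor numbers come from the labels, and since no label ties the same number to a shared batch or animal they name a tumor only. The alternatives were another pseudocount (0.1), no filter and a filter at 5, both rescalings, 1 fit of all 9 tumors, the replicate block, joined entries and leaving out each tumor. The hepatocyte covariate and the fits without the 3 tumors of shared Hamp entries were added after seeing the data.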

Additional observations from a re-analysis of the deposited data

How the results depend on the processing

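No member had an adjusted p under 0.05 in limma under any alternative run. With another pseudocount, no filter, a filter at 5, upper-quartile scaling, equal sums over named entries, 1 fit of 9 tumors, the replicate block or joined entries, all 21 differences of the tested members kept their direction. Equal sums moved the median of all genes by -0.17, -0.13 and 0.043 (responsive against nonresponsive, responsive against PBS, nonresponsive against PBS), and the medians of the other iron genes to -0.19 and -0.10 in the first 2. The count of members with an unadjusted p under 0.05 between responsive and nonresponsive tumors, 1 as reported, was 0 with upper-quartile scaling and in 1 fit of 9 tumors and 2 with the replicate block (Hamp and Tfr2) and with the hepatocyte covariate (Slc39a14 and Fth1), and 0 to 3 when 1 tumor was left out. With equal sums it was 1 as well, but the gene was Tfrc in place of Tfr2. Against PBS in responsive tumors it was 2 with no filter, equal sums and 1 fit of 9 tumors, and 0 to 3 when 1 tumor was left out. In the fit with no filter limma warned that most residual variances were 0. The tumor numbers were no sign of pairing, since deviations of same-numbered tumors correlated at 0.51, 0.060 and -0.026 between responsive and nonresponsive tumors.

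With the hepatocyte covariate 13 of 21 differences turned: between responsive and nonresponsive tumors Hamp -0.43, Slc40a1 -0.27 and Ftl1 -0.14, between responsive and PBS tumors Hamp -0.83, Slc39a14 -0.83, Slc40a1 -0.41, Fth1 -1.70 and Ftl1 -0.27, and between nonresponsive and PBS tumors Hamp -0.40, Slc39a14 -0.18, Slc40a1 -0.14, Fth1 -0.48 and Ftl1 -0.13. Smad6 turned to -0.25 against PBS, and the list medians were -0.21, -0.21 and -0.023. The cause was not tested, and the covariate did not overlap between PBS and responsive tumors. Joined entries turned Id1 to -0.34 and 0.22, mainly by adding the separate H13 entries of nonresponsive tumors 2 and 3.

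The other iron genes with an unadjusted p under 0.05, 4, 8 and 2 as reported, were 1 with equal sums and 9 with the covariate in the first comparison, 5 with the replicate block in the second, and 1 with no filter, equal sums, the replicate block or joined entries in the third, and 0 to 5, 3 to 16 and 0 to 5 when 1 tumor was left out. Leaving out 1 tumor moved their medians from -0.021 to 0.19 in the second and from 0.047 to 0.34 in the third comparison. It kept 114 of 126 differences of the members in direction. The ranges that crossed 0 were Slc39a14 -0.44 to 0.047 and Fth1 -0.79 to 0.25 in the first, Slc39a14 -0.15 to 0.41 and Fth1 -0.18 to 0.89 in the second and Ftl1 -0.035 to 0.65 and Tfrc -0.17 to 0.27 in the third. For the log2 ratios they were Fth1 over Ftl1 -0.64 to 0.15 in the second and -0.13 to 0.59 in the third, and Tfrc over Fth1 -1.12 to 0.30 in the first and -1.36 to 0.16 in the third. Over all genes, calls at an adjusted p under 0.05, 16, 32 and 11 as reported, fell to 1, 0 and 0 with the replicate block. The ratio of Hamp to Hamp2 was not run, since Hamp2 had no level of its own.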
